A study of Mus musculus with 6 samples.

Results

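Fat cell genes were examined in skeletal muscle of transgenic and wild-type mice, with adiponectin set beside the other transcripts of fat cells on each array. The 10 genes comprised the adipokine genes Adipoq, Lep, Retn and Cfd, the lipid droplet and fatty acid binding genes Plin1, Cidec and Fabp4, the transcription factor gene Pparg, and the adiponectin receptor genes Adipor1 and Adipor2. They were chosen partly from the TG and WT values of these same arrays, in which Adipoq had stood out, so their group values are a description, and their counts past a limma threshold stand only beside the share of all genes and support nothing. A probe set with a single platform symbol represented 9 of the 10, out of 19938 genes so represented, and Cfd was not analysed here. Each of the 9 had 1 probe set, so no second probe set was at hand to compare.

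The series, titled for SOCS-3 in muscle, holds 6 Affymetrix MoGene arrays, each from the frozen skeletal muscle of a separately named mouse. The TG group consists of 3 mice labelled transgenic and the WT group of 3 mice labelled wild type. The labels do not give the transgene's construct or promoter, the founder line, the strain, the age, or which muscle was taken. Values are log2 expression as the authors deposited them, so a difference of 1 is a 2-fold change. Array medians lay between 5.98 and 6.04, and array-to-array Pearson correlations across genes were 0.9943 to 0.9960. The 16 muscle fibre transcripts measured averaged 13.38 to 13.43 on the 6 arrays, among the brightest values of the table. No array was a copy of another, and the precision of every value is limited by 3 arrays per group.

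Adiponectin and leptin are hormones that white fat cells release into the blood, and mouse fat also releases resistin and the complement protease adipsin. Perilipin 1 and CIDEC coat the large lipid droplet of the fat cell, FABP4 carries fatty acids within it, and PPARγ is the nuclear receptor that drives fat cell formation and switches on many of these genes. Muscle fibres answer adiponectin through the receptors AdipoR1 and AdipoR2, which act on AMP-activated kinase and on fatty acid oxidation. Fat cells lie between and around muscle fibres, so whole muscle RNA holds their transcripts too, and fibres themselves have been described to make some adiponectin. In such RNA, more fat cells in the piece and more RNA per fat cell cannot be told apart.

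The stretches just upstream of 4 of these genes are shown because Adipoq, on one side, and Lep, Plin1 and Retn, on the other, differed in how they varied from array to array, as described further on. Those of Cidec and Pparg, which also varied otherwise than Adipoq, are not shown. A link between these sequences and the array values was not tested. Each is the 250 bases before the RefSeq start in GRCm38.p6, written 5′ to 3′ on the gene's strand, with matches to 5 motifs in capitals. Adipoq lies at chr16:23146286-23146535 on the plus strand, Lep at chr6:29059971-29060220 on the plus strand, Plin1 at chr7:79732777-79733026 on the minus strand and Retn at chr8:3655520-3655769 on the plus strand.
Adipoq: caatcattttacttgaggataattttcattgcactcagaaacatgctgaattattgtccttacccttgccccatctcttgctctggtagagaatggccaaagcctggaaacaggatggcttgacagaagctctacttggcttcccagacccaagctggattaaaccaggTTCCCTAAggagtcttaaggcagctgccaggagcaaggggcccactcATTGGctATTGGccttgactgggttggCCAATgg
Lep: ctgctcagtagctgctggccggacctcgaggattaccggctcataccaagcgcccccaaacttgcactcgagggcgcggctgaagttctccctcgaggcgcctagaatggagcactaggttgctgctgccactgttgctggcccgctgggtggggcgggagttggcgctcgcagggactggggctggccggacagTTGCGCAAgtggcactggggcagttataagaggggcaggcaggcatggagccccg
Plin1: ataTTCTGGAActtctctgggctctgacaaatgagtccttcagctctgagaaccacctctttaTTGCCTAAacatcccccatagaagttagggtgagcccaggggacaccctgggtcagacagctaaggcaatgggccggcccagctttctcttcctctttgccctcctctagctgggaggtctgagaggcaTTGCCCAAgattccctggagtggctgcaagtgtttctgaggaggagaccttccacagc
Retn: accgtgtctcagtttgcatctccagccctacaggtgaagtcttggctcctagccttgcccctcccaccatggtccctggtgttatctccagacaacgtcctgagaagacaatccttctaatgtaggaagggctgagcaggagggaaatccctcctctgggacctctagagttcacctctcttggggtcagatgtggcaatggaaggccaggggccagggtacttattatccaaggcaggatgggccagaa

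The motifs, searched on both strands, were a site of the fat cell factor C/EBP (TTNCNNAA), the CCAAT box (CCAAT), a nuclear receptor half-site (AGGTCA), the TATA box (TATAAA) and the E-box (CACGTG). The C/EBP letters occurred once upstream of Adipoq, as TTCCCTAA at -81 to -74 counted back from the start, and 3 times upstream of Plin1. Upstream of Lep the stretch TTGCGCAA, at -55 to -48, matched on both strands. Upstream of Adipoq there were also 3 CCAAT boxes, the nearest at -7 to -3, and upstream of Retn there were 0 matches. Among the 32851 such stretches in the RefSeq table, 36.8% held the C/EBP letters, 33.8% the CCAAT box, 14.0% the half-site, 12.4% the TATA box and 6.02% the E-box. The letters are thus common, and a match describes the sequence without showing that a factor binds it.

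Adipoq, the adiponectin gene, had higher values on every TG array than on any WT array. Its expression was 5.99, 5.74 and 6.04 on TG arrays 1, 2 and 3, and 5.25, 5.34 and 5.28 on WT arrays 1, 2 and 3. The groups were separated by 0.40 between the lowest TG and the highest WT value, and TG array 2 was the lowest of the TG arrays. TG averaged 5.93 ± 0.16 and WT 5.29 ± 0.05 (SD over 3 arrays each). TG minus WT was thus 0.64 in log2 (SE 0.09, 95% interval 0.42 to 0.85), or 1.55-fold. Leaving out each array in turn gave differences of 0.58 to 0.73. Adipoq was a dim probe set, with a mean of 5.61 where the median gene had 6.42, and signal over background was not assessed here.

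Lep, the gene of the satiety hormone leptin, was measured at 4.42, 4.70 and 4.47 on the TG arrays and at 4.48, 4.10 and 4.22 on the WT arrays, in array order. WT array 1 lay above 2 of the TG arrays, so the groups overlapped, and TG array 2 was the highest of all. The log2 difference was 0.26 (SE 0.12, 95% interval -0.01 to 0.54). Retn, which encodes resistin, stood at 6.02, 6.24 and 6.03 in TG and at 5.91, 5.96 and 5.96 in WT. All TG values lay above all WT values, though by a margin of only 0.06, and TG array 2 was again the highest. Its difference was 0.16 (SE 0.08, 95% interval -0.03 to 0.34).

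**Figure D1:**
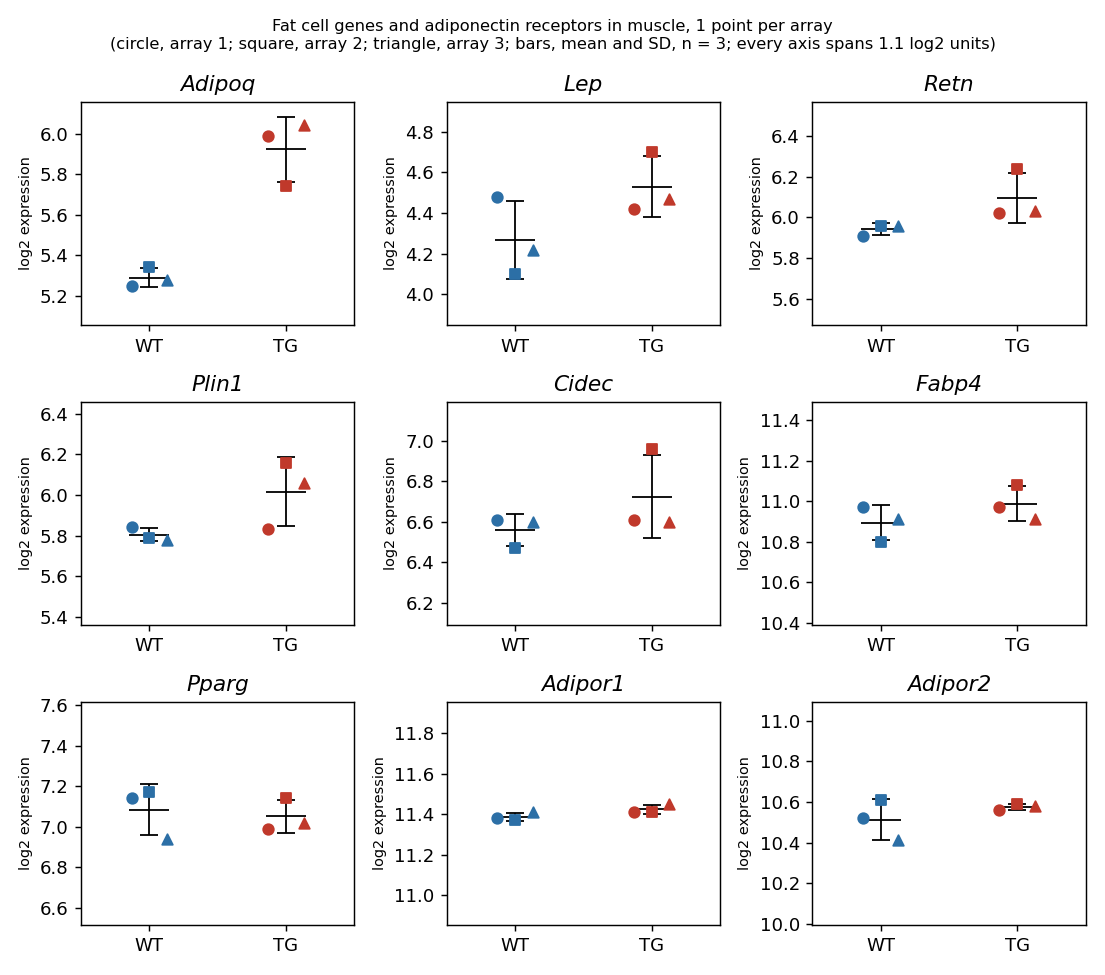
Log2 expression of the 9 measured genes on each array, WT in blue and TG in red, with mean and SD of 3 arrays per group; each axis spans the same range. Adipoq is the gene whose groups stand clearly apart, by 0.40, and TG array 2, drawn as a red square, is the highest TG value for Lep, Retn, Plin1, Cidec, Fabp4 and Pparg but the lowest for Adipoq.

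The lipid droplet genes Plin1 and Cidec were both highest on TG array 2. Plin1, the gene of the main droplet coat protein of white fat cells, was at 5.83, 6.16 and 6.06 on the TG arrays and at 5.84, 5.79 and 5.78 on the WT arrays. TG arrays 2 and 3 were above every WT array, while TG array 1 was just under WT array 1. The means were 6.02 ± 0.17 and 5.80 ± 0.04 (SD, n = 3 each), a difference of 0.21 (SE 0.09). Cidec, whose protein fuses droplets into one large droplet, was at 6.61, 6.96 and 6.60 in TG and at 6.61, 6.47 and 6.60 in WT. TG array 2 was the highest and WT array 2 the lowest, the other 4 arrays lay at 6.60 or 6.61, and the difference was 0.17 (SE 0.11, 95% interval -0.09 to 0.42).

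Fabp4, the fatty acid binding protein gene of fat cells that capillary endothelium and macrophages also express, was at 10.97, 11.08 and 10.91 in TG and at 10.97, 10.80 and 10.91 in WT. The groups overlapped, with TG array 2 the highest and WT array 2 the lowest, and the difference was 0.09 (SE 0.08, 95% interval -0.09 to 0.27). Pparg, the gene of the fat cell nuclear receptor, was at 6.99, 7.14 and 7.02 in TG and at 7.14, 7.17 and 6.94 in WT. It was the single measured gene of the 9 with a difference below 0, at -0.03 (SE 0.09, 95% interval -0.23 to 0.17), and the sign turned to 0.01 without WT array 2.

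Adipor1 and Adipor2, the adiponectin receptor genes, varied little. Adipor1 was at 11.41, 11.41 and 11.45 in TG and at 11.38, 11.37 and 11.41 in WT, a difference of 0.04 (SE 0.06, 95% interval -0.10 to 0.18). Its TG values lay above its WT values by a margin of 0.002, which quantile normalization removed. Adipor2 was at 10.56, 10.59 and 10.58 in TG and at 10.52, 10.61 and 10.41 in WT, a difference of 0.07 (SE 0.07, 95% interval -0.10 to 0.24) that became 0.02 without WT array 3 and 0.12 without WT array 2. AdipoR1 is the main receptor of muscle and AdipoR2 that of liver, and the values of both overlapped or nearly touched between the groups.

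Over the 9 genes, 8 differences were above 0 and 1 below, with a median of 0.16, where 8728 of all genes were above 0, 11210 below, and the median was -0.016. By limma, 0 of the 9 passed an adjusted p of 0.05, which 0.00502% of all genes did, and 1, Adipoq, had an unadjusted p under 0.05 with higher values in TG, as did 1.96% of all genes. Adipoq had such a p under every other fit that tested it, joined by Lep or Plin1 or both under some. The fit on genes above the median level left Adipoq out and gave such a p to 0 of the 5 members it tested. None of the 9 passed the adjusted threshold in any of these fits. The TG and WT arrays did not overlap for 3 of the 9, Adipoq, Retn and Adipor1, all higher in TG, and this was so for 4.52% of all genes. When the arrays were scaled to share one median, these 3 genes and Plin1 did not overlap. Under quantile normalization the 3 that did not overlap were Adipoq, Retn and Plin1. Over all genes, in either direction, 2449 did not overlap as deposited, 2456 with a shared median and 2365 under quantile normalization.

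**Figure D2:**
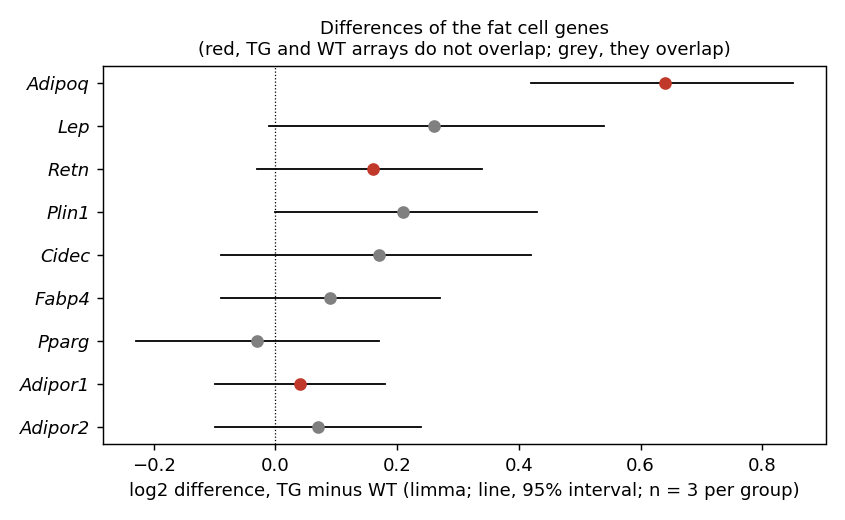
Log2 difference, TG minus WT, of the 9 measured genes from limma (points), with 95% intervals (lines) and 3 arrays per group. Adipoq lies at 0.64, Lep and Plin1 follow at 0.26 and 0.21, and the receptors Adipor1 and Adipor2 lie near 0; red points mark Adipoq, Retn and Adipor1, whose arrays do not overlap between the groups.

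Set beside one another array by array, adiponectin and the other fat cell genes varied together only in part, 5 of the 6 others being higher in TG on average but ordered differently within the TG arrays. For this, each gene was expressed as log2 units above or below its own mean over the 6 arrays, since levels of different probe sets cannot be compared. The mean of the 6 other measured fat cell genes (Lep, Retn, Plin1, Cidec, Fabp4 and Pparg) was -0.02, 0.22 and 0.02 on TG arrays 1, 2 and 3, and 0.00, -0.12 and -0.09 on WT arrays 1, 2 and 3. This mean was highest on TG array 2, and on TG arrays 1 and 3 it was hardly different from WT array 1. It describes these 6 genes, and whether it measures fat cell content was not tested. On TG array 2 the lists described further on averaged 0.08 for other secreted factors, 0.05 for triglyceride synthesis and 0 for lipolysis. Averages there were -0.01 for lipid droplets, -0.04 for fat cell formation, and 0.01 and -0.01 for adiponectin and leptin signalling. Hepatocyte transcripts, described further on, were also highest on TG array 2 for 15 of 16 genes, and their part in these averages was not tested. All 6 other fat cell genes were above their own mean on TG array 2, against 3 of 6 on each of TG array 1, TG array 3 and WT array 1, 1 on WT array 2 and 0 on WT array 3. TG array 2 held the highest value of 5 of the 6, and the exception was Pparg, which was highest on WT array 2.

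Adipoq followed another order on these arrays, a contrast that rests mainly on TG array 2. On the same scale it was 0.39, 0.13 and 0.44 on TG arrays 1, 2 and 3, and -0.36, -0.27 and -0.33 on WT arrays 1, 2 and 3. On TG array 2, where the other 6 genes were each above the mean of TG arrays 1 and 3 by 0.14 to 0.35, Adipoq was below it by a difference of -0.28. The largest of those 6 steps was that of Cidec, at 0.35, followed by Lep at 0.25, Retn at 0.22 and Plin1 at 0.21. Among the WT arrays, Adipoq was highest on WT array 2, on which the mean of the other genes was lowest. These WT values lay close together (SD 0.05 for Adipoq, 0.06 for the mean of the others), so their order carries little weight. Within the groups the spread of Adipoq (pooled SD 0.12) was near that of the median gene (0.112). Whether its order within the TG arrays is more than scatter among 3 arrays was not tested.

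Subtracting the mean of the 6 other genes from Adipoq on each array left 0.41, -0.09 and 0.42 in TG and -0.35, -0.15 and -0.24 in WT. The TG values remained above the WT values only narrowly, TG array 2 at -0.09 lying close to WT array 2 at -0.15. For Adipoq alone the gap was 0.40. The SD of this quantity was 0.29 in TG and 0.10 in WT, against 0.16 and 0.05 for Adipoq alone. Its difference between the groups was 0.49, against 0.14 for the mean of the 6 genes alone. Without TG array 2 the difference of Adipoq was 0.73, and those of Lep, Retn, Plin1, Cidec and Fabp4 were 0.18, 0.08, 0.15, 0.05 and 0.04. The differences of Retn, Cidec and Fabp4 thus shrank by more than 1.5 times without that array, and that of Adipoq grew. Because the Adipoq values fell into 2 separate clusters, the TG and the WT arrays, no correlation over the 6 arrays is given.

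**Figure D3:**
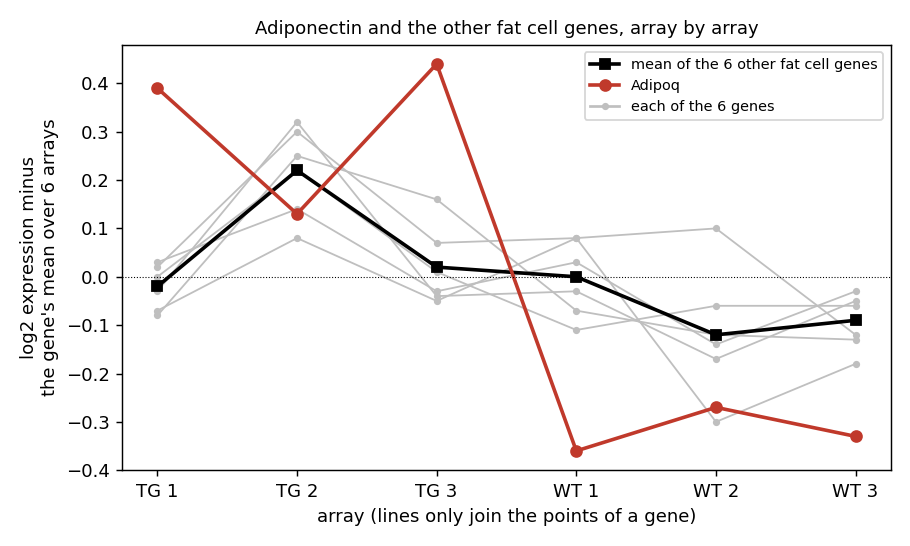
Log2 expression minus each gene's own mean over the 6 arrays, for Adipoq (red), the 6 other fat cell genes (grey) and their mean (black); lines only join the points of a gene. The black line peaks at 0.22 on TG array 2, where Adipoq, at 0.13, is lower than on TG arrays 1 and 3.

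By a distance that counts the size of a gene's group difference, the genes nearest to Adipoq over the 6 arrays were not fat cell genes. Likeness was measured as the root mean square distance, in log2 units, between 2 profiles after each gene's mean was removed, on which a gene that does not vary at all lies 0.333 from Adipoq. The 5 nearest of 19937 genes were the odorant receptor gene Olfr1331 at 0.057, the pyruvate dehydrogenase phosphatase gene Pdp2 at 0.103, Gm5662 at 0.136, Tcl1b3 at 0.138 and the actin-related protein gene Actr6 at 0.139. Olfr1331 was at 5.48, 5.20 and 5.51 on the TG arrays and at 4.88, 4.85 and 4.83 on the WT arrays, with TG array 2 the lowest of the TG arrays as for Adipoq. Plin1 was the nearest fat cell gene, at 0.275 and rank 944, followed by Lep at 0.292 and rank 1813, Retn at 0.293 and rank 1929, Fabp4 at 0.319 and rank 4483 and Cidec at 0.324 and rank 5175. These 5 lay nearer to Adipoq than a gene without variation, as did 6545 of all genes and both receptors, Adipor2 at 0.305 and Adipor1 at 0.314. Pparg, at 0.368 and rank 11638, was farther from Adipoq than a gene without variation. The 5 nearest genes differed between the groups by 0.38 (Tcl1b3) to 0.76 (Gm5662). Fat cell genes with smaller differences could thus hardly rank near Adipoq whatever their order of arrays. The ranking mostly restates the group differences and does not decide whether Adipoq varied as fat cell genes do.

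The chromosomal neighbours of Adipoq, looked at after the values were seen, had differences nearer 0 or below it. Of the 4 tested genes on either side of it on chromosome 16, in the gene order of GRCm38.p6, 0 of 8 had groups that did not overlap. Over all genes 4.52% lay entirely higher in TG and 7.76% entirely lower, so a count of 0 among 8 says little. Rfc4, a replication factor gene, and Eif4a2, a translation initiation factor gene, lie on one side and differed by 0.07 (SE 0.09) and -0.01 (SE 0.07). C730014E05Rik and BC106179, on the other side, differed by -0.02 and -0.05, and the 8 genes together ranged from -0.41 for Kng1 (SE 0.4) to 0.07 for Rfc4. Kng1 was highest on TG array 2, at 6.91, and lowest on TG array 3, at 5.13, as were most hepatocyte transcripts described further on.

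The other genes of fat cells and of adipokine signalling were taken from 7 lists with 118 measured genes, and none passed an adjusted p of 0.05 (limma, over all genes tested). Higher values in TG with an unadjusted p under 0.05 were found for 2 of the 118, or 1.69%, against 1.96% of all genes, and lower ones for 5, or 4.24%, against 4.79%. The TG arrays lay entirely above the WT arrays for 5 of them (4.24%, against 4.52% of all genes) and entirely below for 7 (5.93%, against 7.76%). These shares are near those of all genes, and the median difference of the 118 was 0.003.

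The lists of lipolysis and of triglyceride synthesis hold enzymes of fat storage and release, and each had 1 gene with higher values in TG at an unadjusted p under 0.05. Ces1d, a carboxylesterase that hydrolyses triglyceride in fat and liver, was at 8.95, 8.55 and 9.14 on the TG arrays and at 8.31, 7.90 and 7.75 on the WT arrays. As with Adipoq, all TG values were above all WT values and TG array 2 was the lowest of the TG arrays, and the difference was 0.89 (SE 0.19; limma, adjusted p = 0.546). Scd1, the desaturase that makes oleate for storage, was at 8.40, 8.53 and 8.81 in TG and at 8.05, 7.96 and 8.10 in WT, a difference of 0.54 (SE 0.11; limma, adjusted p = 0.546). In the lipolysis list 7 of 13 genes were above 0 (median 0.051), with the lipoprotein lipase gene Lpl at -0.14 (SE 0.07) and the monoacylglycerol lipase gene Mgll at 0.15 (SE 0.08). In the list of triglyceride synthesis and storage 12 of 20 were above 0 (median 0.010), with the acetyl-CoA carboxylase gene Acaca at 0.12 and the glucose transporter gene Slc2a4 at -0.07.

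Among 20 other genes listed as secreted factors of fat, 12 were above 0, with a median of 0.037 and 0 at an unadjusted p under 0.05. Nnat and Npr3 in that list encode membrane proteins rather than secreted ones. Angptl4, an inhibitor of lipoprotein lipase, differed by 0.27 (SE 0.13), Nampt, the enzyme also known as visfatin, by 0.12 (SE 0.07) and Nnat, which encodes neuronatin, by 0.15 (SE 0.09). In the lipid droplet list, apart from Plin1 and Cidec, 7 of 15 lay above 0 (median -0.010). The droplet coat gene Plin3 was at 0.28 (SE 0.14), Cidea, a relative of Cidec that is prominent in brown fat, at -0.25 (SE 0.14), and the seipin gene Bscl2, which is needed for droplet formation, at -0.10 (SE 0.08).

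Of 22 regulators of fat cell formation, mostly transcription factors, 9 lay above 0 (median -0.038). The 3 with an unadjusted p under 0.05 all had lower values in TG, a call that 4.79% of all genes had. Srebf1, the lipogenic factor gene, was at 8.29, 8.06 and 8.42 in TG and at 8.64 on each WT array, a difference of -0.38 (SE 0.10; limma, adjusted p = 0.660). Wnt10b, which encodes a secreted inhibitor of fat cell formation, differed by -0.23 (SE 0.07), and Prdm16, a coregulator of brown fat, by -0.19 (SE 0.08). For each of these the TG arrays all lay below the WT arrays.

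Genes downstream of the adipokine receptors had medians close to 0. In the adiponectin list 9 of 18 were above 0 (median -0.007), with 0 at an unadjusted p under 0.05. Ppargc1a, the coactivator gene of mitochondrial biogenesis, was at 9.50, 10.41 and 9.50 on the TG arrays and at 9.15, 9.34 and 9.55 on the WT arrays, a difference of 0.46 (SE 0.24), and the groups overlapped. TG array 2 held its highest value, as it did for Lep, Retn, Plin1, Cidec and Fabp4. Prkab1, a subunit of AMP-activated kinase, differed by 0.12 (SE 0.08) and Paqr3, a relative of the adiponectin receptors, by -0.11 (SE 0.08). Cdh13, which encodes the adiponectin-binding T-cadherin and is named for that role after its values were seen, differed by 0.01 (SE 0.06).

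In the list of leptin receptor signalling 5 of 10 genes were above 0 (median -0.002), and 2 had an unadjusted p under 0.05, both lower in TG as were 4.79% of all genes. These were Stat3, the transcription factor that leptin activates, at -0.30 (SE 0.07), and Socs3, its feedback inhibitor, at -0.26 (SE 0.07; limma, adjusted p = 0.660 for both), while the insulin receptor substrate gene Irs2 was at -0.18 (SE 0.19). Socs3 had 2 probe sets, and only that of higher mean is given. The series is titled for SOCS-3 and the labels do not give the transgene's construct, so the transgene's part in the Socs3 value was not tested. Lepr, the leptin receptor gene, named after its values were seen, was dim, at 4.45 to 4.88 over the 6 arrays, with a difference of 0.01 (SE 0.12).

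**Figure D4:**
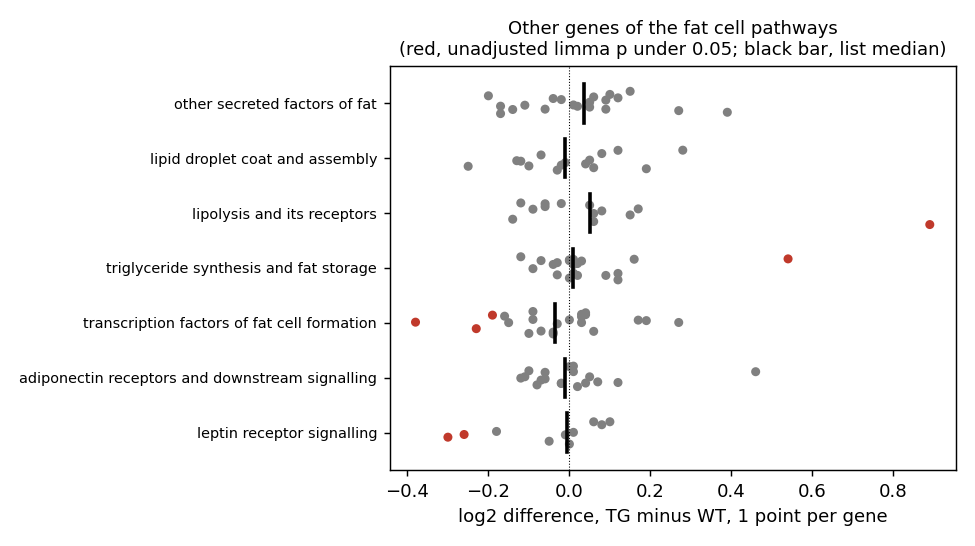
Log2 difference, TG minus WT, of the genes in 7 lists around the fat cell (1 point per gene), with the list median as a black bar and genes of unadjusted limma p under 0.05 in red. List medians lie between -0.038 and 0.051, with Ces1d at 0.89 and Scd1 at 0.54 farthest to the right and Srebf1 at -0.38 farthest to the left.

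Transcripts of other cells also varied between the arrays beside the fat cell genes, and their part in the values above was not tested. Hepatocyte transcripts, which muscle is not known to make in quantity, were highest on TG array 2 for 15 of 16 genes, where 3061 of all 19938 genes were highest. Their mean was 6.28, 7.56 and 5.30 on TG arrays 1, 2 and 3 and 6.62, 7.15 and 7.16 on WT arrays 1, 2 and 3, so TG array 3, with the highest Adipoq, had the least, and Hpx, Apoa1 and Apoh differed by -1.01, -0.78 and -0.30. Bone and osteoclast transcripts were highest on TG array 1 for 8 of 13 genes, where 2701 of all genes were highest, with Ctsk and Acp5 at 0.57 and 0.69 and Ocstamp at -0.20. Macrophage transcripts averaged 6.73 to 6.95 on the TG arrays and 6.56 to 6.90 on the WT arrays, with 10 of 14 above 0 and Itgam, Cd68 and C1qb at 0.57, 0.51 and 0.15. Endothelial transcripts, of cells that also express Fabp4, had 4 of 12 above 0 and means of 8.53 to 8.57 in TG and 8.55 to 8.65 in WT, with Egfl7, Pecam1 and Kdr at -0.25, 0.14 and -0.24.

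Of the genes listed as brown fat markers, 1 of 10 lay above 0 (median -0.062), with Cidea, Zic1 and Cox8b at -0.25, -0.09 and -0.05. Cox8b, at 13.34 in TG and 13.39 in WT, and Cox7a1, at 12.96 and 12.98, were about as bright as the muscle fibre genes. Their values in muscle thus need not come from brown fat, and Ucp1 was dim, at 4.71 and 4.79. Progenitors of fat cells and fibroblasts gave 5 of 10 above 0 (median 0.013), with Pi16 at -0.28, Pdgfra at 0.16 and Gsn at 0.16. Keratinocyte transcripts were highest on WT array 3 for 7 of 8 genes, where 5043 of all 19938 genes were highest, with Krt5, Trp63 and Krt15 at -0.31, -0.22 and -0.15. Lymphocyte transcripts had 3 of 9 above 0, with Cd3g, Cd8a and Cd4 at -0.30, -0.24 and -0.20. Of the muscle fibre genes Myh2, Myh1 and Tnni2 differed by -0.30, 0.06 and -0.05.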

How the data were processed

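Muscle RNA of 3 TG and 3 WT mice was labelled with biotin and hybridised to Affymetrix MoGene arrays, per the labels. The authors deposited 1 table of log2 values for 35557 probe sets, spanning 1.41 to 15.1, and the log2 scale was read from those values. The sources used here do not state how probes were background-corrected, normalized and summarized, or the genome build. The values were used as deposited, and 0 columns were left out. Platform annotation gave 1 symbol to 21789 probe sets, several to 1621 and none to 12147, and only the first kind was used. Where a gene had several probe sets, that of highest mean stood for it.

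TG and WT were compared over 19938 genes by limma's lmFit and eBayes (version 3.58.1, R 4.3.3; tests two-sided), with Benjamini-Hochberg adjustment over all of them and a threshold of 0.05. The steps were tested on simulated data. Lists were described by counts and medians. RefSeq promoter entries matched 9 of the 10 genes. Figures were drawn with matplotlib 3.10.9. Named genes were, per list, the 3 of smallest unadjusted p, and the 5 nearest to Adipoq. The genes, lists and tests were chosen with earlier results of these data known. Replicates were numbered in deposit order. Alternatives covered the variance model, array weights, the low-value filter, probe set choice, scaling and each array left out.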

Additional observations from a re-analysis of the deposited data

How the results depend on the processing

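The difference of Adipoq stayed above 0 under the 10 alternatives that could move it. Among these, the fit with the mean of the 6 other fat cell genes as a covariate, added after seeing the data, gave 0.796 (limma, adjusted p = 0.436). That fit alone moved the difference by more than the spread between arrays. Its slope on the mean of the 6 genes was -1.12, so Adipoq was fitted lower where they were higher. The larger difference follows from that negative slope, estimated on only 6 arrays. Whether the mean of the 6 genes measures fat cell content was not tested. The difference of Adipoq less those 6 genes ranged from 0.407 without TG array 3 to 0.660 without TG array 2. For the 8 other measured genes, each under 9 alternatives, no difference moved by as much as the spread between arrays, and the one sign that turned was that of Pparg. Over all genes, the count past an adjusted p of 0.05 went from 1 to 7 with an intensity trend, to 0 with robust moderation, to 2 among genes above the median level and to 0 with a common array median, and was 0 without each array in turn. Restricting to genes above the median level, which tests fewer genes, gave 686 at an unadjusted p under 0.05 (1346 over all genes) and 1234 with groups that do not overlap (2449 over all genes). The 4 dimmest members, Adipoq, Lep, Retn and Plin1, are not in that fit. List medians stayed within -0.059 and 0.078, and 6 of 7 changed sign under some alternative. No paired analysis was possible because the labels give no replicate numbers that pair the mice. The number of arrays, and the unknown signal over background of dim probe sets, limit what can be seen.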
